A study of Homo sapiens with 6 samples.

Results

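The resting transcriptome of the human thyroid cancer line KHM-5M is described here from its untreated libraries. These are the 2 control libraries, whose cells received PBS, out of 6 RNA-seq libraries in the series, and they hold values for 17687 genes. KHM-5M is labelled as an anaplastic thyroid cancer, and the cells of all groups grew in RPMI-1640 with 10% fetal bovine serum. The other groups received sodium selenite (SS), or SS together with the thiol antioxidant N-acetylcysteine (SS+NAC), in 2 libraries each. The SS dose and the length of exposure of the sequenced cells are not given in the labels, and a 5 in the SS titles has no unit and was not read as a dose. The groups share this established line, grown in culture. The libraries of a group are biological replicates according to the methods of the study.

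Follicular cells of the thyroid make thyroid hormone from the protein thyroglobulin, and the transcription factors PAX8, NKX2-1, FOXE1 and HHEX hold them in that state. Anaplastic thyroid cancers arise from these cells and lose most of their specialised functions, often together with epithelial traits. The thyroid is also rich in selenium, which is built as selenocysteine into a small family of proteins that includes glutathione peroxidases, thioredoxin reductases and the deiodinases that activate or inactivate thyroid hormone.

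The expected counts, which are read numbers that RSEM divides among genes sharing sequence, summed to 17645545 in control replicate 1 and 22016655 in control replicate 2. A count above 0 was present for 16114 and 16216 genes. Levels are given as TPM (transcript abundance scaled to a fixed library total), which are corrected for transcript length and sum to the same total in each library, so genes can be compared with each other. Where no count was seen, 3 counts were taken as the upper limit, which is 0.170 and 0.136 CPM (counts scaled to the library total) in these libraries. Such limits cover counting error only. In a fixed order throughout, paired values are those of control replicate 1 and control replicate 2.

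Of the 17687 genes, 11986 (67.8%) were at 1 TPM or more in both control libraries and are called expressed here. Another 4741 had a count but did not reach 1 TPM in both libraries, among them 339 that reached it in 1 library alone. No count was found in either library for 960 genes (5.43%). The median of the mean TPM was 7.98 over all genes and 20.4 over the expressed genes. By class of mean TPM, 4574 genes with a count lay under 1, 3861 between 1 and 10, 6659 between 10 and 100, 1486 between 100 and 1000, and 147 at 1000 or more. The distribution thus had a broad low shoulder and a main peak above 10 TPM.

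**Figure D1:**
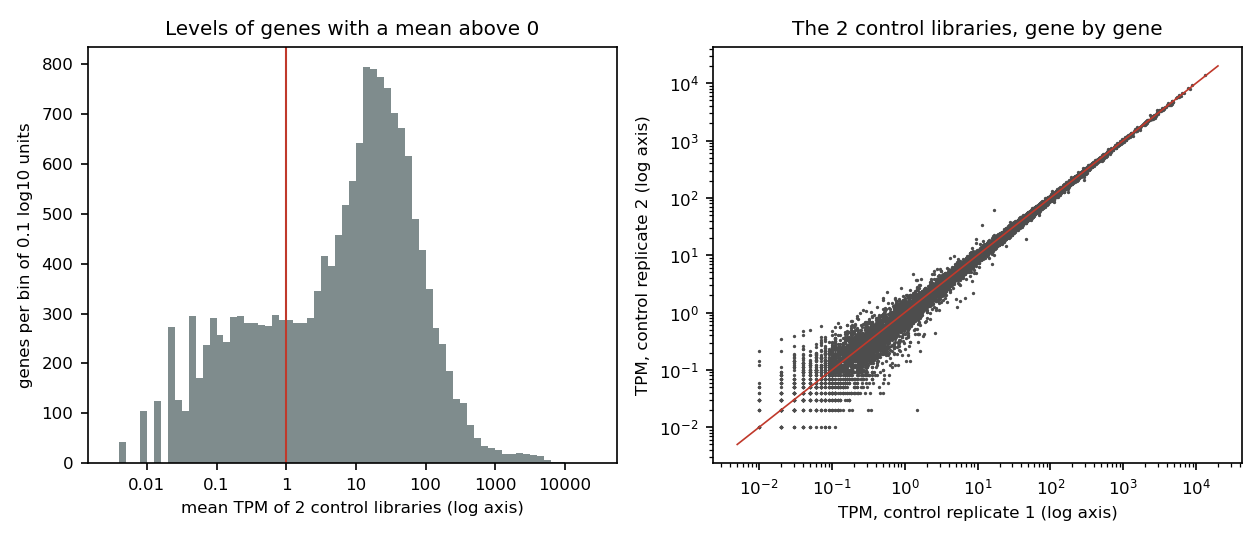
Left, the number of genes in bins of 0.1 log10 units of mean TPM over the 2 control libraries, with a line at 1 TPM; right, the TPM of each gene in control replicate 2 against control replicate 1 on log axes, with the line of equal values. The main peak lies above 10 TPM, and the libraries spread apart below 1 TPM.

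Agreement between the control libraries was close at high levels. Across the 11986 expressed genes, which are not independent replicates, Pearson's r of log2 TPM was 0.997, given as a description. The median size of the log2 ratio between the libraries was 0.05 among genes at 1000 TPM or more, 0.15 between 1 and 10 TPM, and 0.51 under 1 TPM among genes with a value in both. Counts nevertheless differed by more than counting error. The chi-square for each degree of freedom, which is near 1 when counting error alone separates libraries, was 3.05 over 14261 genes. It was 7.12 between the SS libraries and 11.7 between the SS+NAC libraries.

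Of 8292 genes with a mean of at least 10 TPM, 10 differed more than 1.5-fold between the control libraries and 5 more than 2-fold. EIF3CL had 16.6 and 60.3 TPM, U2AF1L5 11.5 and 33.6, and TPTEP2-CSNK1E 9.4 and 19.5. SAA2, which encodes an acute-phase serum amyloid, had 46.6 and 19.0 TPM, and LIMS4 had 15.7 and 7.15. All 5 had expected counts that were not whole, as had 50.6% of all genes between 10 and 100 TPM. Their reads were divided with other genes, and their levels are uncertain.

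A few genes supplied much of the RNA. The most abundant gene held 1.32% and 1.38% of all TPM, the 10 most abundant 7.49% and 7.62%, and the 100 most abundant 33.6% and 34.0%. The genes that together made up 50% of TPM numbered 318. The 147 genes at 1000 TPM or more held 39.5% and 39.9% of TPM, and their median effective length was 926 bases, against 3436 among genes between 1 and 10 TPM. Without the genes for cytosolic ribosomal proteins, the mean share of the top 100 fell from 33.8% to 26.7%, and counted as reads without regard to length it was 20.8%.

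GAPDH, a glycolytic enzyme, was the most abundant gene at 13186 and 13844 TPM. Ribosomal proteins made up 9 of the 20 most abundant genes and 63 of the top 100, and the 85 genes of this family held 21.2% and 21.3% of TPM. RPS2 led them at 8806 and 9126 TPM, and RPL41, RPL8, RPLP0, RPL30, RPLP1, RPL35 and RPL7 were also among the 20. The ferritin chains FTL and FTH1, which store iron, reached 6869 and 6681 TPM and 4588 and 4308 TPM. The metallothionein MT2A, a small metal-binding protein rich in thiols, had 6161 and 5871 TPM.

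The cytoskeleton and translation supplied most other genes of the top 20. VIM, the intermediate filament protein of mesenchymal cells, ranked 7 with 5880 and 6202 TPM. TMSB10, which binds actin monomers, had 5721 and 5781 TPM, the tubulin TUBA1B 4674 and 4944, and the actin ACTB 4644 and 4958. The elongation factor EEF1A1 had 5899 and 5748 TPM. MTRNR2L2 ranked 3 with 8244 and 7950 TPM and MTRNR2L8 ranked 18 with 4523 and 4478. These are nuclear genes that closely resemble mitochondrial ribosomal RNA, their counts were not whole, and their levels are uncertain. Counts were not whole for 45.6% of all genes at 1000 TPM or more, among them also GAPDH, RPL41, MT2A, EEF1A1, TUBA1B, ACTB and FTH1.

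To describe lineage and function, 43 lists of genes were written by role, with 756 different genes, of which 692 were in the table. Of these, 442 (63.9%) were expressed and 46 (6.65%) had no count, beside 67.8% and 5.43% of all genes. The median over the listed genes was 5.81 TPM. The 14 housekeeping reference genes, the 24 proliferation genes and the 26 glutathione genes were all expressed. By contrast, the list for thyroid hormone synthesis had 1 expressed gene of 9 found.

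**Figure D2:**
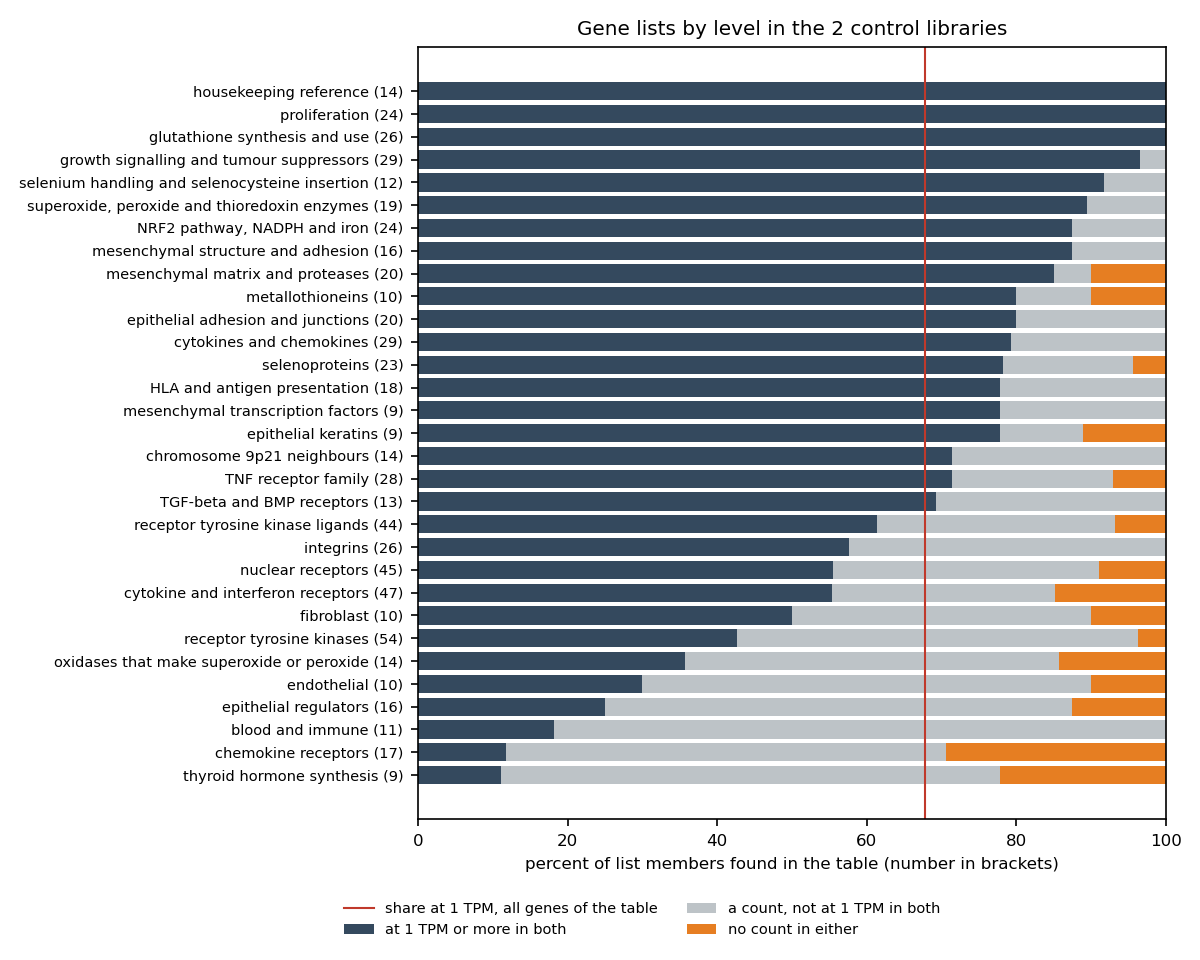
Percent of the members of each gene list with at least 9 members in the table that were at 1 TPM or more in both control libraries, had a count below that, or had no count, with the number of members in brackets and a line at the 67.8% of all genes. Glutathione, proliferation and housekeeping lists fill the bar, and thyroid hormone synthesis and chemokine receptors lie at the bottom.

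The thyroid label was checked against the factors that define follicular cells. PAX8 was high, at 134 and 126 TPM, and HHEX had 28.0 and 27.3 TPM. GLIS3, a zinc finger factor needed for the expression of hormone synthesis genes, had 9.13 and 9.03 TPM. FOXE1 lay at the limit, at 1.14 and 0.78 TPM, and NKX2-1 was near 0, at 0.15 and 0.2 TPM. So 2 of the factors that hold the follicular state were well expressed, and the other 2 were at or under 1 TPM.

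The machinery that makes thyroid hormone was nearly silent. Of its 9 genes in the table, 1 was expressed. SLC5A5, the iodide symporter, had 0.64 and 0.61 TPM, SLC26A4, an iodide and chloride exchanger, 0.63 and 0.55, and TG, which encodes thyroglobulin, 0.28 in both. The deiodinase DIO2 had 0.45 and 0.6 TPM and IYD, which recovers iodide, 0.13 and 0.1. DIO1 and DUOXA1, the maturation factor of a peroxide-forming oxidase, had no count. TSHR, DUOX2, DUOXA2, SLC5A8 and TFF3 are not in the table and were not analysed here. So PAX8 and HHEX were in keeping with the label, and the iodide transporters, deiodinases and thyroglobulin were each under 1 TPM.

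Other endocrine cells of the neck left little trace. Of the 5 markers of C cells and neuroendocrine cells in the table, none was at 1 TPM in both libraries, and they summed to 1.86 and 1.4 TPM. Their most abundant gene was CHGB, a secretory granule protein, at 1 and 0.76 TPM. CALCA, which encodes calcitonin, had 0.15 and 0 TPM. The parathyroid genes GCM2 and CASR had no count.

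Among epithelial genes, the keratins of simple epithelia were abundant. KRT8 had 1134 and 1189 TPM and its partner KRT18 had 933 and 927. KRT80 followed with 82.3 and 79.9 TPM, KRT7 with 59.7 and 60.4, and KRT81 with 19.6 and 19.3. KRT19 had 2.19 and 1.51 TPM, KRT15 1.64 and 1.81, and KRT20, a keratin of the gut, had no count. In all, 7 of 9 keratins of the list were expressed, and KRT8 with KRT18 made up most of their summed 2233 and 2279 TPM.

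Cell junctions were represented at moderate levels, with 16 of 20 genes expressed and a median of 10.2 TPM. The desmosomal cadherin DSG2 led them with 46.3 and 47.5 TPM. TJP1, a scaffold of the tight junction, had 29.6 and 29.2 TPM. The plakophilin PKP3 had 26.6 and 28.6 TPM, and CLDN1 29.4 and 24.7. Chosen after their values were seen, EPCAM had 6.07 and 5.04 TPM, and CDH1, which encodes E-cadherin, 0.29 and 0.16. Desmosome and tight junction genes were thus present where the main epithelial cadherin was near 0.

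Regulators of epithelial identity were mostly low, with 4 of 16 genes expressed and a median of 0.213 TPM. KLF5 had 15.7 and 16.4 TPM, the protease inhibitor SPINT2 13.2 and 11.9, the mucin MUC1 3.65 and 2.73, and the splicing factor ESRP2 2.02 and 2.29. GRHL1 had 1.06 and 0.83 TPM, ELF3 0.49 in both, TP63 0.41 and 0.28, and ESRP1 0.12 and 0.02. GRHL3, ELF5 and EHF were at 0.14 TPM or less in each library. OVOL1, a repressor of mesenchymal genes, and RAB25 had no count, and GRHL2 and OVOL2 are not in the table.

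Transcription factors of the mesenchymal state were present, with 7 of 9 expressed. TWIST2 had 33.0 and 36.2 TPM, TWIST1 23.8 and 22.6, and ZEB1, a repressor of CDH1, 21.5 and 18.5. SNAI2 had 16.8 and 16.7 TPM, SNAI1 8.31 and 8.38, ZEB2 7.66 and 7.2, and TCF4 4.32 and 3.52. FOXC2 had 0.66 and 0.64 TPM, and PRRX1 0.16 and 0.04. All 6 listed members of the TWIST, ZEB and SNAI families were expressed.

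Structural genes of mesenchymal cells stood far above the table's median, with 14 of 16 expressed and a median of 148 TPM. Beside VIM, the receptor AXL had 496 and 506 TPM, the tropomyosin TPM2 402 and 385, the myosin light chain MYL9 385 and 371, and the hyaluronan receptor CD44 365 and 378. TPM1 had 341 and 349.7 TPM. Chosen after their values were seen, CDH2, which encodes N-cadherin, had 48.2 and 52.3 TPM, and ACTA2, the smooth muscle actin, 0.99 and 0.61. The cadherin pair was thus tilted towards CDH2.

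**Figure D3:**
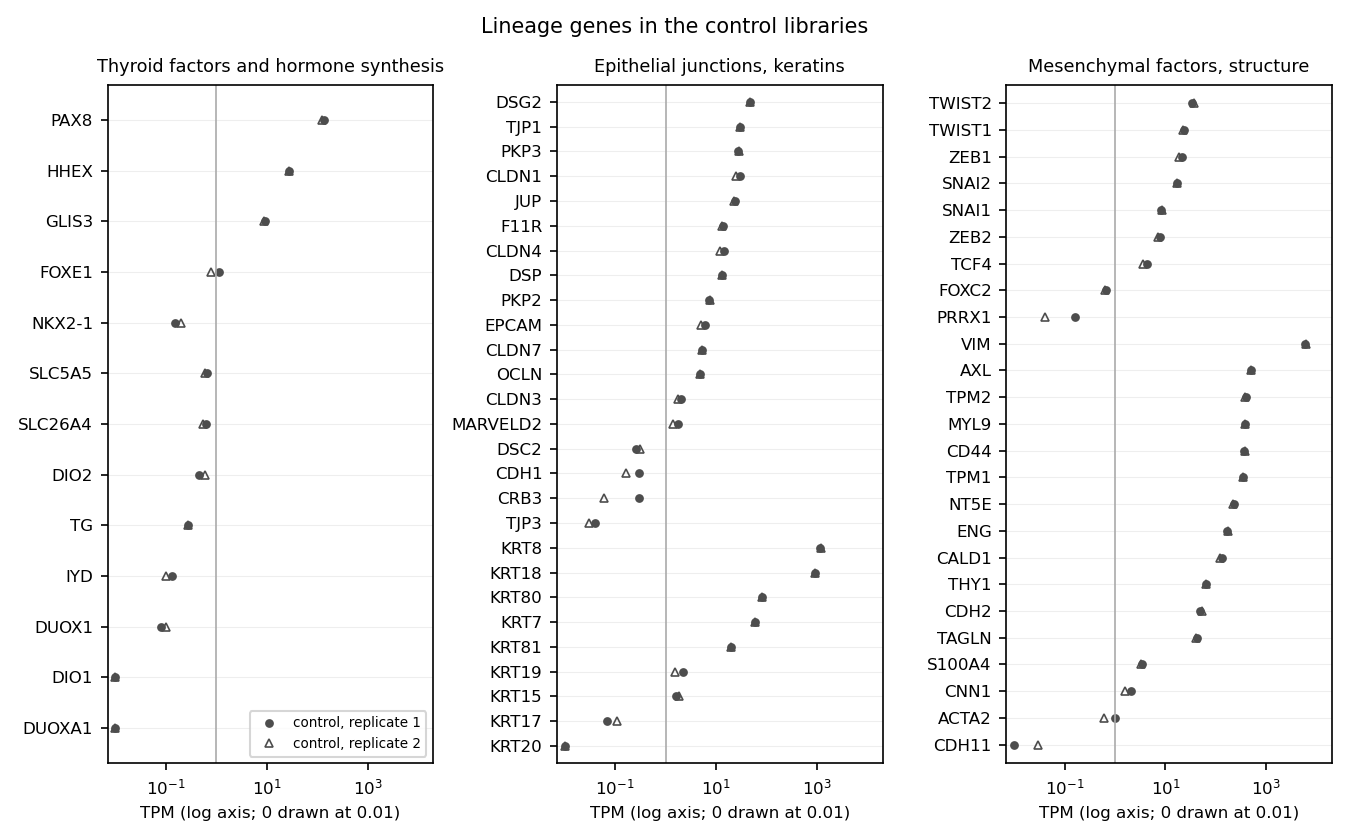
TPM of members of 6 lineage lists in the 2 control libraries, as filled circles (replicate 1) and open triangles (replicate 2) on a log axis, with 0 drawn at 0.01 and a line at 1 TPM. PAX8, KRT8, KRT18 and VIM lie far to the right, and CDH1, TG and NKX2-1 to the left of the line.

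The extracellular matrix had a selective pattern, with 17 of 20 genes expressed and a median of 98.0 TPM. Fibronectin, FN1, had 1131 and 1111 TPM, the matricellular protein CCN1 781 and 785, and TGFBI 619 and 630.3. SPARC had 242 and 254 TPM and COL1A1, a chain of type I collagen, 216 and 215. Its partner chain COL1A2, noted after its value was seen, had 0.02 and 0 TPM. COL3A1 and POSTN had no count. The chains of type I collagen were therefore far apart, with COL1A1 abundant and COL1A2 next to 0.

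In the collagen family as a whole, 18 of 41 genes were expressed. The most abundant after COL1A1 were COL6A2 with 122 and 118 TPM, and COL4A2, a chain of basement membrane collagen, with 80.7 and 79.9. Laminins, the other main basement membrane proteins, had 8 of 12 genes expressed, led by LAMB3 with 138 and 131 TPM. Of 10 fibroblast markers, 5 were expressed and the list summed to 319.8 and 315 TPM, most of it COL1A1. THY1 had 62.8 and 63.7 TPM, PDPN 27.5 and 24.6, LUM 7.15 and 5.7, and PDGFRB 5.64 in both. DCN and PDGFRA, other markers of the list that were picked after their values were seen, lay at 0.17 TPM or less in each library. The fibroblast markers were thus mixed.

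Promoter sequence was compared with the level of expression, since the level classes span genes from silent to very abundant. A promoter is taken as the 250 bases before and 50 bases after a listed start, from RefSeq on GRCh38.p14. By gene ID, 13863 of the 17687 genes were matched, 3838 of them with more than 1 start, and the start listed first was used. That start need not be the one in use in KHM-5M cells. CpG content is the observed number of CpG dinucleotides over the number that the C and G content gives by chance. Its median was 0.333 in 676 genes with no count, 0.511 under 1 TPM, 0.795 between 1 and 10, and 0.861 between 10 and 100. It then levelled off, at 0.870 between 100 and 1000 TPM and 0.881 in 114 genes at 1000 or more. Across the 13863 genes, Spearman's rho of CpG content with mean TPM was 0.42, as a description.

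Short motifs were searched as exact letters on both strands. They were TATAAA, the core of the TATA box, then CCAAT, read by nuclear factor Y, and the GC box core GGGCGG. The TATA letters were held by 16.3% of promoters of genes with no count, 13.1% under 1 TPM, 4.19% between 10 and 100 TPM and 13.2% of the 114 promoters at 1000 TPM or more. The GC box rose from 37.1% with no count to 73.5% between 10 and 100 TPM, and was 69.3% in the highest class. CCAAT varied little, from 34.7% to 40.4%. Among all 35116 promoters of the reference, 11.5% held the TATA letters, 34.6% held CCAAT and 45.0% the GC box. A match describes the letters and is not evidence that a factor binds.

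**Figure D4:**
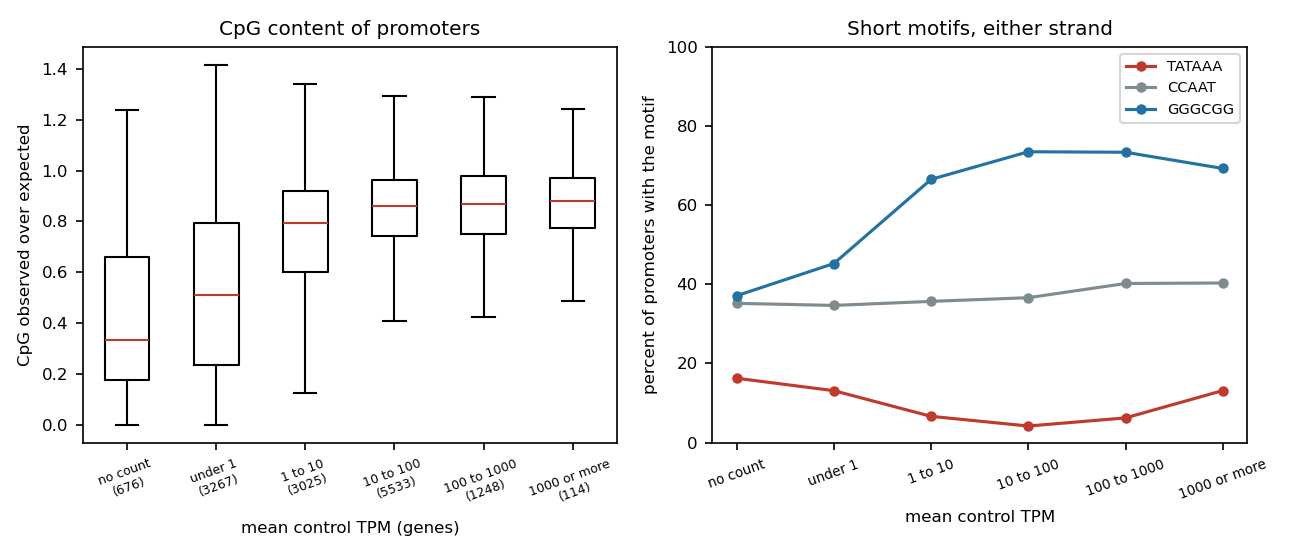
Left, CpG observed over expected in promoters by class of mean control TPM (boxes, quartiles with the median in red; whiskers, up to 1.5 times the box; number of genes in brackets); right, percent of promoters with each motif. CpG content and GGGCGG are lowest in genes with no count, and TATAAA is lowest between 10 and 100 TPM.

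The first listed start was used for each promoter, and for KRT8 and GAPDH it may not be the main start of the gene. The listed promoters of 4 genes described above are printed with their motif matches in capitals. That of GAPDH, the most abundant gene, lies at chr12:6535014-6535313 on the plus strand, inside the gene's span in the deposited table, which begins at base 6534517, with a CpG content of 0.761 and GGGCGG on the minus strand at bases -216 and -148 from the start, printed as its complement. That of PAX8, the leading thyroid factor, lies at chr2:113278872-113279171 on the minus strand, with a CpG content of 0.483 and CCAAT at -240 and -82. KRT8, the most abundant keratin, at chr12:52926420-52926719 on the minus strand, has a CpG content of 0.111 and no match in this window. DIO1, with no count, at chr1:53893937-53894236 on the plus strand, has 0.159, with CCAAT on the plus strand at -223 and on the minus strand at -188, and GGGCGG on the minus strand at -44. Each sequence is given from 5′ to 3′ on the gene's strand.
GAPDH: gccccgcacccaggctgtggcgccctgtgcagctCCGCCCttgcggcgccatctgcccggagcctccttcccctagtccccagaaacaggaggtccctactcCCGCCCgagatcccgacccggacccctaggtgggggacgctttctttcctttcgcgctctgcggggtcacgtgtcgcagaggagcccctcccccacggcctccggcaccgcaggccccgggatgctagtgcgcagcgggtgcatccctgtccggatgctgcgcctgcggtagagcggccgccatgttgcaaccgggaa
PAX8: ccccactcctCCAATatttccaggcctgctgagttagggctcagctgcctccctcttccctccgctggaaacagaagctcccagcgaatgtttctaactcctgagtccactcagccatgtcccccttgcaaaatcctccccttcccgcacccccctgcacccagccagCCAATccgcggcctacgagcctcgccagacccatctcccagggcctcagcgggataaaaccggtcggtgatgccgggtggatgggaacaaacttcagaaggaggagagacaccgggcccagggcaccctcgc
KRT8: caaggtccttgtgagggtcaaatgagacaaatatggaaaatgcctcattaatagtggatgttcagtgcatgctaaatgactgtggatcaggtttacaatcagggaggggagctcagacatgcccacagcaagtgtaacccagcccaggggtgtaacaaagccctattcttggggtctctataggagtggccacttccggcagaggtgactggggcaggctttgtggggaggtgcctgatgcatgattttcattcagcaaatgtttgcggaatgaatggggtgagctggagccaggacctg
DIO1: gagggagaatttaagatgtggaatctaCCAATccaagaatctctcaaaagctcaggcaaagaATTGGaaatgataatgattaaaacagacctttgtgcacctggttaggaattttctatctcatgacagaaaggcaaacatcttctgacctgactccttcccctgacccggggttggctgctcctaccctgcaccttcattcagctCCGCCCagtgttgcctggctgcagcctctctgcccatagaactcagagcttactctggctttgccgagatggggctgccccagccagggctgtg
The CpG content of GAPDH, PAX8, KRT8 and DIO1 lies below the lower quartile of their classes. That quartile is 0.772 at 1000 TPM or more, 0.750 between 100 and 1000, and 0.176 with no count. These examples therefore do not stand for the classes.

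Receptor tyrosine kinases carry growth signals across the membrane, and 23 of the 54 in the table were expressed, a smaller share (42.6%) than among all genes. AXL, the receptor for GAS6, was the most abundant at 496 and 506 TPM, and no other reached 100 TPM. The ephrin receptors EPHA2 and EPHB2 had 65.9 and 69.7 TPM and 55.6 and 53.5 TPM, and MET, the receptor for hepatocyte growth factor, 54.1 and 52.2. PTK7 had 50.9 and 46.9 TPM, and TIE1, known from endothelial cells, 41.1 and 43.2. EGFR had 38.4 and 40.7 TPM. ERBB4 and ALK had no count, and RET, NTRK2, FLT3 and INSRR are not in the table.

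Their ligands were expressed in 27 of 44 cases. GAS6, the ligand of AXL, was the most abundant with 195 and 180.1 TPM, so that both members of this pair led their lists. VEGFB had 118 and 122 TPM and VEGFA 47.1 and 40.7, while KDR, a receptor for VEGFA, and FLT1, a receptor for both, noted after their values were seen, had 0.52 and 0.25 TPM and 0.22 and 0.2 TPM. GDNF had 37.5 and 37.7 TPM, HBEGF, a ligand of EGFR, 36.4 and 38.6, and PDGFC 34.1 and 34.0. HGF, the ligand of MET, had no count, nor did FGF21 and NTF3. Ligand and receptor thus occurred together for AXL and EGFR, and for MET the receptor alone.

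Receptors for transforming growth factor beta and bone morphogenetic proteins were expressed in 9 of 13 cases, led by TGFBR2 at 111 TPM in both libraries. ACVR1 had 19.6 and 19.4 TPM, BMPR1A 15.8 and 15.6, and ACVR1B 14.5 and 16.3. The tumour necrosis factor receptor family was expressed in 20 of 28 cases. TNFRSF12A, the receptor for TWEAK, had 433 and 439.6 TPM, the decoy receptor TNFRSF6B 242 and 235, LTBR 209.6 and 209.2, and TNFRSF1A 126 and 123. CD40, best known from antigen-presenting cells, had 70.7 and 67.6 TPM. TNFRSF13B and TNFRSF17, receptors of B cells and plasma cells, had no count.

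Cytokine and interferon receptors were expressed in 26 of 47 cases. IL13RA1 had 79.0 and 74.3 TPM, IFNGR2 71.0 and 73.8, IL15RA 40.9 and 39.0, and IL6ST, the shared signalling chain of the IL6 family, 36.5 and 31.8. IL10RB had 35.5 and 34.0 TPM and OSMR 31.8 and 32.1. Those with no count were CRLF2, CSF2RB, CSF3R, IL13RA2, IL20RA, IL3RA and IL5RA, several of which are known from blood cells. Chemokine receptors were nearly silent, with 2 of 17 expressed. CCR10 had 4.59 and 3.52 TPM and ACKR3 2.63 and 1.95, and CCR3, CCR8, CX3CR1, CXCR3 and CXCR4 had no count.

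Secreted cytokines and chemokines were expressed in 23 of 29 cases, with a median of 7.16 TPM. CXCL1, which attracts neutrophils, had 173 and 129 TPM, TGFB1 105 and 109.9, CXCL5 53.3 and 40.5, LIF 29.7 and 25.9, IL11 21.8 and 24.4, and INHBA 24 and 21.9. Several differed between the control libraries more than other genes at their level, such as CXCL8 with 24.6 and 14.6 TPM and CXCL3 with 9.36 and 4.97. The list summed to 578 and 481 TPM, higher in control replicate 1.

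Nuclear receptors are transcription factors that bind small ligands, and 25 of 45 were expressed. The orphan receptors NR2F2 and NR2F6 led with 70.0 and 75.6 TPM and 71.8 and 70.9 TPM, followed by NR1H2 with 62.9 and 64.8 and ESRRA with 46.9 and 44.7. RARG had 40.0 and 36.5 TPM and RXRB 39.7 and 36.3. Of the thyroid hormone receptors, noted after their values were seen, THRA had 12 and 14 TPM and THRB 2.94 and 2.8. ESRRB, ESRRG, NR1I2 and NR5A2 had no count.

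Integrins, which anchor cells to the matrix, were expressed in 15 of 26 cases. ITGB1, a beta chain shared by many integrins, had 495 and 449 TPM, and ITGA3, a partner for laminin, 276 and 273. ITGA6 had 97.1 and 101 TPM, ITGB5 81.2 and 82.8, ITGA5, a partner for fibronectin, 79.3 and 80.0, and ITGAV 30.0 and 24.4. Chosen after their values were seen, ITGAM and ITGAD, chains of blood cell integrins, were at 0.04 TPM or less, while ITGA4 and ITGB7, also found on blood cells, had 26.4 and 22.6 TPM and 5.08 and 6.85 TPM.

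Selenoproteins were expressed in 18 of the 23 cases in the table, with a median of 54.3 TPM, beside 7.98 over all genes. The list summed to 2301 and 2253 TPM. GPX1, the cytosolic glutathione peroxidase, led with 590.0 and 599.6 TPM, and GPX4, which reduces lipid peroxides in membranes, had 429 and 413. TXNRD1, the cytosolic thioredoxin reductase, had 354 and 342 TPM. Together with SELENOF at 155 and 148 TPM and the secreted peroxidase GPX3 at 106 and 108, they were the 5 members above 100 TPM.

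A middle group of 12 selenoproteins lay between 17 and 100 TPM. SELENOW had 98.5 and 93.7 TPM, SELENOH 78.0 and 80.8, TXNRD2, the mitochondrial thioredoxin reductase, 69.5 and 72.9, and SELENOM 71.3 and 62.7. SELENON had 64.8 and 69.2 TPM, SELENOS 56.6 and 53.4, SELENOT 56.6 and 51.9, SEPHS2, which makes the selenium donor for selenocysteine, 53.6 and 52.5, and SELENOK 49.5 and 42.7. Several of these proteins reside in the endoplasmic reticulum. MSRB1, which repairs oxidised methionine, had 22.9 and 20.1 TPM, SELENOO 21.8 and 20.5, SELENOI 17.8 and 17.5, and TXNRD3 was lower at 4.4 and 3.62.

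Of the selenoproteins, 5 did not reach 1 TPM. DIO2 lay at 0.45 and 0.6 TPM, GPX2, the peroxidase of the gut lining, at 0.52 and 0.08, and SELENOV at 0 and 0.11. SELENOP, which carries selenium in plasma, had 0 and 0.05 TPM, and DIO1 had no count. DIO3 and GPX6 are not in the table.

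**Figure D5:**
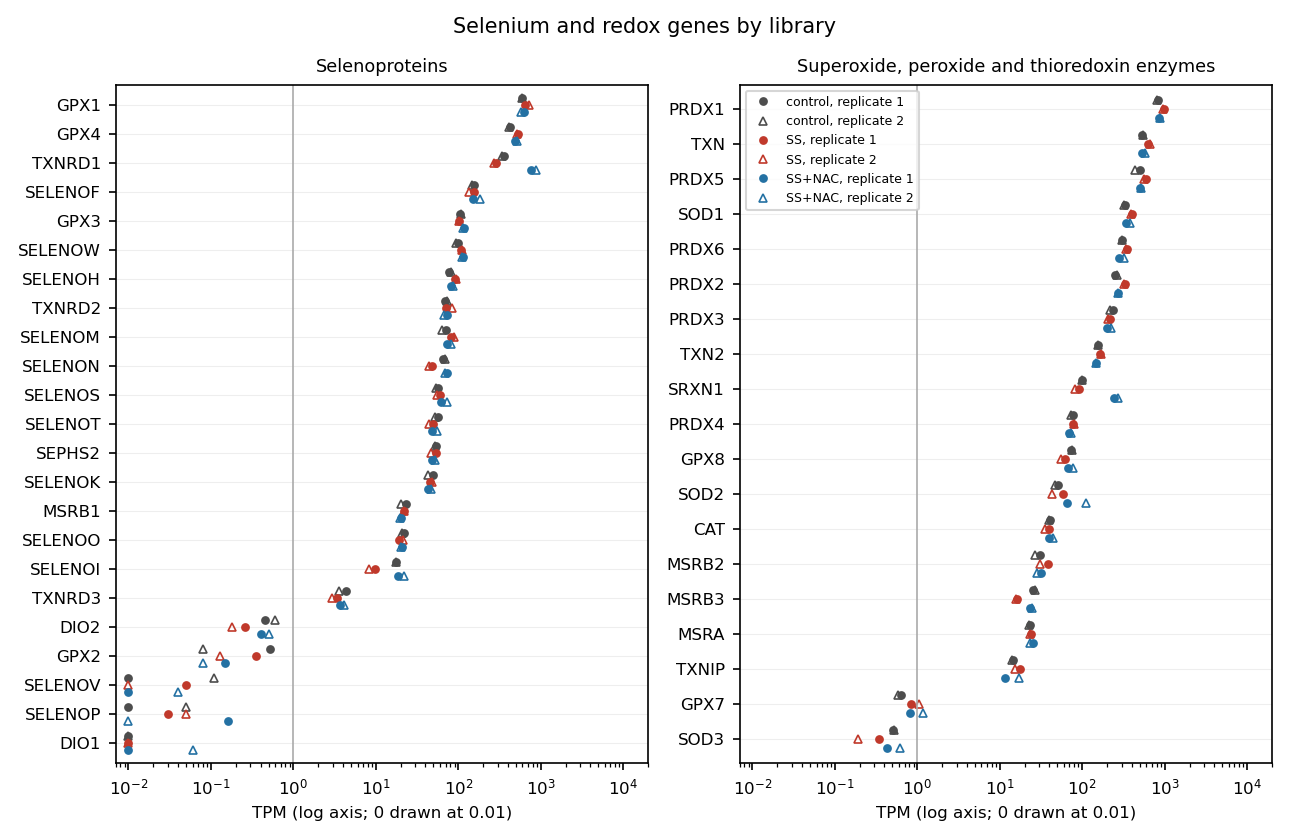
TPM of each selenoprotein (left) and each superoxide, peroxide and thioredoxin enzyme (right) in the 6 libraries on a log axis, with 0 drawn at 0.01 and a line at 1 TPM; colours mark the groups, filled circles replicate 1 and open triangles replicate 2. TXNRD1 and SRXN1 lie further right in the SS+NAC libraries than in the control libraries.

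Of the genes that take up selenium and insert selenocysteine, 11 of 12 were expressed. SARS1, which loads serine onto the selenocysteine transfer RNA, had 210.2 and 226 TPM, and SEPHS1 123 and 124. SECISBP2 and EEFSEC, which recode the stop codon, had 31.3 and 30.2 TPM and 29.4 and 28.7. TRNAU1AP had 27.0 and 30.1 TPM and SCLY, which frees selenium from selenocysteine, 27.2 and 27.7. LRP8, a receptor for SELENOP, noted after its values were seen, had 21 and 21.5 TPM, whereas LRP2, another such receptor, had 0 TPM in both. The selenocysteine transfer RNA itself was not analysed here.

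Enzymes that remove superoxide and peroxide were abundant, with 17 of 19 expressed and a median of 75.2 TPM. PRDX1, a peroxiredoxin that reduces peroxide, had 835 and 811 TPM, thioredoxin, TXN, 526 and 541, and PRDX5 503 and 438. SOD1, the cytosolic superoxide dismutase, had 327 and 323 TPM, PRDX6 303 in both, and PRDX2 248 and 264. Catalase, CAT, and SOD2, named after their values were seen, were lower at 40.6 and 39.4 TPM and 51.1 and 46.1. Peroxiredoxins and thioredoxin thus stood well above catalase in mRNA level.

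Of 14 listed genes of oxidases that make superoxide or peroxide, 5 were expressed, and the respiratory chain is not part of this list. CYBA, the membrane subunit shared by several NADPH oxidases, had 603 and 581 TPM, and AOX1, aldehyde oxidase, 93.0 and 91.8. NOXA1, NOXO1 and XDH lay between 1.01 and 1.54 TPM. NOX1 and MAOA had no count, and CYBB, NOX3 and DUOX2 are not in the table. The catalytic NOX4, picked after its value was seen, had 0.42 and 0.6 TPM, so the partner subunit CYBA was high where the catalytic subunits found were under 1 TPM.

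All 26 genes of glutathione synthesis and use were expressed, with a median of 31.2 TPM. GSTP1, a glutathione transferase, had 866 and 834 TPM, SLC3A2, the heavy chain of amino acid transporters, 229 and 253, and MGST3 241 and 213. MGST1 had 214 and 189 TPM, GSTO1 199 and 189.6, and GLRX5 177 and 173. The steps that limit supply were lower. GCLC and GCLM, subunits of the enzyme that limits glutathione synthesis and picked after their values were seen, had 23.7 and 21.3 TPM and 19.2 and 20.1. SLC7A11, which imports cystine, had 6.68 and 7.18 TPM.

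Genes of the NRF2 pathway, NADPH supply and iron were expressed in 21 of 24 cases. After the ferritins came TKT and TALDO1, enzymes of the pentose phosphate pathway, with 489.9 and 504 TPM and 327 and 329, and AKR1B1 with 352 and 343. NQO1, a quinone reductase and a target of NRF2, had 193 and 196 TPM. NFE2L2, which encodes NRF2, and its inhibitor KEAP1, both noted after their values were seen, were at like levels, 66.6 and 62.7 TPM and 65.5 and 65.0. Among NRF2 targets picked in the same way, HMOX1 had 21.9 and 19.4 TPM, AKR1C1 1.22 and 1.39 and AKR1B10 0.42 and 0.55.

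Metallothioneins bind zinc and copper, and 8 of 10 were expressed. After MT2A, MT1E had 1330 and 1277 TPM, MT1A 141 and 138, MT1X 105 and 118, MT1G 54.7 and 55.6, and MT1F 28.7 and 31. MT3, the form of the brain, had no count. The list summed to 7828 and 7495 TPM, of which MT2A gave most.

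Genes of cell division were well represented, and all 24 of the proliferation list were expressed, with a median of 158 TPM. PCNA, the clamp of replication, had 469.6 and 470.4 TPM, TYMS 419 and 434, and the helicase subunit MCM7 339.6 and 357. CCND1, cyclin D1, had 300.0 and 299 TPM, CCNB1 294 and 295, and MCM5 219 and 238. The lowest of the list was CCNE1 at 14.1 and 18.2 TPM, picked after its value was seen. The share of cells in each phase was not measured.

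Growth signalling genes and tumour suppressors were expressed in 28 of 29 cases. EIF4EBP1, a repressor of translation, had 318 and 331 TPM, AKT1 217 and 219, RHEB, which activates mTOR, 189.6 and 187, and HRAS 102 and 109.6. Chosen after their values were seen, RB1 had 46.5 and 39.4 TPM, TERT, the catalytic subunit of telomerase, 1.74 and 1.94, and CDKN2A 57.2 and 58.7. CDKN2A lies in a region of chromosome 9 often lost in cancers. Of its 14 listed neighbours there, itself included, 10 were expressed (71.4%), beside 67.8% of all genes. Among them were MTAP with 21.8 and 19.6 TPM and PLAA with 16.6 and 16.9. Those not expressed were DMRTA1 with 0.81 and 0.61 TPM, IFNE with 0.15 and 0.06, TEK with 0.07 and 0, and ELAVL2 with 0.03 and 0. Loss of any part of the region was not tested.

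Antigen presentation was expressed in 14 of 18 cases. B2M, the shared light chain of class I molecules, had 1076 and 1024 TPM, HLA-B 245 and 228, HLA-C 144 and 141, and HLA-E 146 and 136. Class II molecules were low. CIITA, their main activator, had 0.68 TPM in both libraries, and HLA-DRA 0.09 and 0.07, both noted after their values were seen. The invariant chain CD74, also named in this way, had 36.0 and 36.3 TPM.

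Markers of other cell types were checked as lists, since a culture could hold other cells or take on their genes. Blood and immune markers were expressed in 2 of 11 cases and summed to 87.3 and 91.3 TPM, of which CD68, a lysosomal protein that many cell lines express, gave 82.8 and 86.9. PTPRC, which defines white blood cells and was picked after its value was seen, had 0.62 and 0.58 TPM. Endothelial markers were expressed in 3 of 10 cases, TIE1, EGFL7 with 18.4 and 15.3 TPM and ESAM with 5.09 and 5.94. PECAM1 lay at 0.22 and 0.2 TPM, CDH5, picked after its value was seen, at 0.03 and 0.02, and CLDN5 had no count.

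The neural list was expressed in 2 of 5 cases, TUBB3 with 131 and 135 TPM and PAX6, an eye and brain factor, with 21.6 and 23.4, while RBFOX3 had no count. Among squamous genes in the table SFN, an inhibitor of the cell cycle, had 254 and 274 TPM, whereas KRT6A and KRT13 had no count. The liver list had SERPINA1 at 14.8 and 14.7 TPM and AHSG with no count, and the melanocyte list MITF at 2.27 and 1.79 TPM and SOX10 with no count. Pluripotency genes were low, led by SALL4 with 3.32 and 2.64 TPM and POU5F1 with 2.22 and 2.94, and LIN28B had no count. Lists of skeletal muscle, lung, intestine and kidney had no expressed member among 5, 5, 3 and 3 genes, with CKM, NAPSA, MUC2 and PAX2 at no count. Whether a small number of other cells gave part of these values was not tested, and in bulk RNA a few cells with a high level cannot be told apart from many with a low level.

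Position along the body axis is recorded in homeobox genes, and the clusters differed. HOXB was expressed in 8 of 9 genes with a sum of 179 and 185 TPM, led by HOXB7 with 47.1 and 48.3 TPM and HOXB2 with 35.7 and 38.3. HOXC followed with 7 of 8 genes and 64.5 and 62.1 TPM, HOXD with 4 of 9 and 48.8 and 47.5, and HOXA with 6 of 11 and 26.8 and 25.4. Among other transcription factor families, forkhead genes were expressed in 20 of 37 cases, led by FOXD1 with 190.3 and 227 TPM and FOXM1, a driver of mitotic genes, with 203 in both. SOX factors were expressed in 7 of 12 cases, led by SOX12 with 57.2 and 55.6 TPM and SOX9 with 23.5 and 24.1. GATA2 and GATA3 had 13.7 and 14.5 TPM and 14.2 and 13.9.

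Cancer-testis antigens, genes of the germ line that some tumours switch on, were expressed in 3 of 29 cases. MAGEA10 had 58.7 TPM in both libraries, MAGEA3 47.2 and 49.3, and MAGEA6 1.06 and 1.03. Reads of MAGE genes are shared among close copies. The list included 7 genes with no count. KRTAP2-3, of the keratin-associated proteins of hair, stood out in a family with 2 of 15 genes expressed, at 105 and 131 TPM.

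Families of specialised tissues accounted for part of the silent genes. Olfactory receptors were expressed in 4 of 70 cases and had no count in 25, led by OR7E24 with 13.7 and 16.1 TPM. Taste receptors were expressed in 0 of 18 cases and defensins in 0 of 5. Sodium, potassium and calcium channel genes were expressed in 15 of 90 cases, CYP enzymes in 10 of 44 and adhesion receptors coupled to G proteins in 10 of 27. By contrast, ribosomal proteins were expressed in 83 of 85.

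For 934 of the 960 genes with no count, the upper limit of 3 counts could be turned into TPM, with a median of 0.197 and 0.157. Expression above such a level was therefore not seen, and expression below it was not detectable at this depth. Most of these genes had few counts in the treated cells as well, since 853 had at most 3 in each of the other 4 libraries. This limit is looser than the absence of any count required in control. Over the 960 genes, the counts summed over the other 4 libraries had a median of 2. More than 3 counts were present for 15 of these genes in both SS libraries and for 11 in both SS+NAC libraries. The number depends on the limit. With at most 3 counts in both control libraries taken as silent, it was 2648, and it was 1471 or 1573 without control replicate 1 or control replicate 2.

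Some genes of low level followed each other in the order of the table's genes along the chromosomes. Genes not in the table were skipped, so such genes need not be direct neighbours on the chromosome. Of the table's genes, 17423 were matched by gene ID to RefSeq positions on GRCh38.p14. In this order, 17 runs of 8 or more genes were under 1 TPM in both control libraries. A run of 13 genes, all protocadherin alpha genes but 1 that is uncharacterised, lay at chr5:140786140-141012347. Another of 13 genes, from CT47A12 to GLUD2, at chrX:120877490-121050094, had no count at all, and its CT47A genes are near copies of each other. On chromosome 1, 10 genes from FLG to S100A9, several of them known from skin barrier formation, lay at chr1:152302165-153361023, with a highest mean of 0.725 TPM. A run of 8 at chr6:32194843-32763532 ran from NOTCH4 through HLA-DRA to HLA-DQB2, and a run of 9 at chr4:68447463-70666508 held UGT2B genes. These runs were picked after they were seen and do not stand for the others.

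By chromosome, the share of genes that were expressed was lowest on the X, with 55.4% of 681 genes and 9.25% with no count. It was highest on chromosome 14, with 74.8% of 523 genes. The other chromosomes lay between 62.5% on chromosome 4 and 71.7% on chromosome 8.

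To see whether the genes that describe the resting cells held their level, each treated group was compared with control by edgeR's quasi-likelihood test over 14005 genes. Both comparisons use the same control libraries, so they are not independent. In SS, 40.0% of the tested genes were called at a Benjamini-Hochberg adjusted p of at most 0.05, 18.6% higher and 21.4% lower. Of the 20 most abundant control genes, 17 were called in SS, 15 of them higher, and of the 100 most abundant 90 were, 87 of them higher. The median log2 fold change of these 100 was 0.47, against 0.00 over all tested genes. Fold changes in SS fell with transcript length, with a Spearman's rho of -0.68 across 14005 genes. With an offset for length, 1286 genes were called in all and 5 of the 100. The abundant genes are short, so the length dependence and the rise of abundant genes cannot be told apart.

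Without control replicate 1, control replicate 2 or SS replicate 2, the number of genes called in SS was 3118, 3628 or 3164, against 5609. TPM and the scaled counts of the test also differ in SS. PAX8, for example, had 116 and 104 TPM in SS, below both control libraries, while its log2 fold change in scaled counts was 0.04 (standard error 0.0717, edgeR adjusted p = 0.722). Its direction therefore depends on the scale.

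Of list members with a mean of at least 1 TPM in control, 231 of 447 were called in SS (51.7%), 136 higher and 95 lower, and 46 with the length offset. Among all tested genes at 1 TPM or more in both control libraries, 45.4% were called. All lists and members were chosen with earlier results of these data known. A count of a list beside all tested genes is therefore no test of that list. Growth factor receptors were among the largest falls. EGFR had 38.4 and 40.7 TPM in control, 16.4 and 13.3 in SS and 35.7 and 37.6 in SS+NAC. Its log2 fold change in SS was -1.19 ± 0.0831 (standard error, SE) at an edgeR adjusted p of 2.76e-05, and -0.81 with the length offset (adjusted p = 0.000566). Both SS libraries lay below all other libraries. MET had 54.1 and 52.2 TPM in control and 28.6 and 24.9 in SS, a log2 fold change of -0.84 ± 0.0724 (SE) at an edgeR adjusted p of 9.43e-05, and -0.44 with the length offset. Its control and SS values did not overlap.

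As a list, receptor tyrosine kinases had 13 of 35 tested genes lower in SS and 0 higher, and 3 called with the length offset, beside 21.4% of all tested genes lower and 18.6% higher. The other falls named by the same rule were those of LIFR, ITGA1, IL6ST, ITGAV, ZEB1, PIK3CA, ITGA4 and KITLG, between -1.10 and -0.84 on the log2 scale. Of the 10 falls, 9 passed with the length offset, and KITLG did not (edgeR adjusted p = 0.0555). Integrins were lower in 9 of 21 tested cases and higher in 1, and receptors for transforming growth factor beta and bone morphogenetic proteins were lower in 8 of 11, with 6 and 1 called with the offset. These counts are small and nothing particular to the lists is read from them.

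Of the mesenchymal factors, ZEB1 had 21.5 and 18.5 TPM in control and 8.52 and 8.39 in SS, a log2 fold change of -0.95 ± 0.111 (SE) at an edgeR adjusted p of 0.000245. SNAI1 had 8.31 and 8.38 TPM in control and 15.8 and 13.0 in SS, a log2 fold change of 1.06 ± 0.118 (SE) at an edgeR adjusted p of 0.000213. With the length offset both were called, at -0.57 and 0.81, with an adjusted p of 0.00965 and 0.0038. So ZEB1 fell where SNAI1 rose, with no overlap between the groups. Over the list, 6 of 8 tested genes were called, 3 higher and 3 lower, beside 40.0% of all tested genes, and 2 with the length offset.

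Of the 10 largest rises in SS among list members with a control mean of at least 1 TPM, 7 were cytokines or chemokines. Over that list 11 of 26 tested genes were called, all higher, beside 18.6% of all tested genes. The list was chosen with earlier results of these data known, so this count is no test of it. EIF4EBP3, with a mean below that limit and noted after its values were seen, had 1.11 and 0.69 TPM in control. It had 3.44 and 8.86 TPM in SS, a log2 fold change of 3.08 ± 0.665 (SE) at an edgeR adjusted p of 0.00462. In SS+NAC it had 0 and 0.6 TPM. Its expected counts in control were only 6.67 and 5.2 and were not whole, so its level is uncertain. IL6 had 3.46 and 3.93 TPM in control, 19.8 and 6.2 in SS and 11.8 and 38.6 in SS+NAC, with a log2 fold change in SS of 1.95 ± 0.605 (SE) at an edgeR adjusted p of 0.0259. CXCL8 had 24.6 and 14.6 TPM in control and 75.6 and 31.6 in SS, a log2 fold change of 1.78 ± 0.508 (SE) at an edgeR adjusted p of 0.0179. For these 2 genes the SS libraries were above the control libraries and apart from each other. CXCL2, CXCL1, CXCL3, IL23A and IL1B rose by 0.99 to 1.47, and for CXCL3 and IL1B the TPM of the SS and control libraries overlapped. With the length offset 0 of these 26 were called, while the log2 fold change of IL6 was 1.59 and that of CXCL8 1.502. The other rises were those of S100A4 at 1.32, SNAI1, and CDKN1A, an inhibitor of the cell cycle, at 0.98. With the length offset SNAI1 and CDKN1A kept their calls and S100A4 did not (adjusted p = 0.208).

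Selenoproteins in SS were called in 13 of 19 tested cases, 10 higher and 3 lower, beside 18.6% of all tested genes higher and 21.4% lower, and in 0 with the length offset. GPX4 had 429 and 413 TPM in control and 533 and 519 in SS, a log2 fold change of 0.60 ± 0.073 (SE) at an edgeR adjusted p of 0.00029. SELENOI, which makes phospholipids, had 17.8 and 17.5 TPM in control and 9.66 and 8.35 in SS, a log2 fold change of -0.69 ± 0.0787 (SE) at an edgeR adjusted p of 0.000226. For both genes the groups did not overlap, and with the length offset neither passed (adjusted p = 0.179 and 0.0932).

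In SS+NAC, 2.01% of the tested genes were called, 1.36% higher and 0.657% lower. Of the 20 and the 100 most abundant control genes, 3 and 4 were called. Without control replicate 1 or control replicate 2, the number of genes called in SS+NAC was 98 or 99, and without SS+NAC replicate 1 it was 1086, against 282. List members with a mean of at least 1 TPM were called in 46 of 447 cases (10.3%), 39 higher and 7 lower. The lists were chosen with earlier results of these data known, so this share is no test of them.

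The rises in SS+NAC included SLC7A11, OSGIN1 and CHAC1. SLC7A11, which takes up cystine, had 6.68 and 7.18 TPM in control, 3.97 and 3.68 in SS and 27.1 and 36.6 in SS+NAC, with a log2 fold change in SS+NAC of 2.13 ± 0.111 (SE) at an edgeR adjusted p of 2.36e-06. CHAC1, which breaks down glutathione, had 9.68 and 9.52 TPM in control and 36.1 and 38.5 in SS+NAC, a log2 fold change of 1.80 ± 0.0971 (SE) at an edgeR adjusted p of 3.02e-06. OSGIN1 had 12 and 13.2 TPM in control and 51.5 and 46.6 in SS+NAC, a log2 fold change of 1.90 ± 0.108 (SE) at an edgeR adjusted p of 4.03e-06. In all 3 the SS+NAC libraries stood above the other 4.

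Of the selenoproteins, 1 of 19 was called in SS+NAC. TXNRD1 had 354 and 342 TPM in control, 288 and 268 in SS and 771 and 884 in SS+NAC, with a log2 fold change in SS+NAC of 1.19 ± 0.0787 (SE) at an edgeR adjusted p of 1.64e-05. Among the genes of selenium handling, LRP8 had 21 and 21.5 TPM in control and 34.2 and 35.4 in SS+NAC, a log2 fold change of 0.65 ± 0.076 (SE) at an edgeR adjusted p of 0.00154, the sole call of 11. Both were above control in each SS+NAC library. Glutathione genes and genes of the NRF2 pathway, NADPH and iron were higher in 7 of 26 and 7 of 23 tested cases and lower in 0, beside 1.36% of all tested genes higher. Both lists were chosen with earlier results of these data known, so these counts are no test of them.

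Cytokines and chemokines rose in SS+NAC in 7 of 26 tested cases, beside 1.36% of all tested genes, with CXCL8 at 85.3 and 269 TPM and CXCL2 at 92.7 and 169, far apart between the libraries. Their log2 fold changes were 3.09 (standard error 0.504, edgeR adjusted p = 0.0122) and 2.60 (standard error 0.319, edgeR adjusted p = 0.00209). The list was chosen with earlier results of these data known, so its count of rises is no test of it. CXCL3, IL1A, CXCL1 and EREG were also among the 10 largest rises, with 1.55 to 1.96. The 7 falls of list members were small, between -0.75 and -0.34. NR2F2, the most abundant nuclear receptor, had 70.0 and 75.6 TPM in control, 48.2 and 49.3 in SS and 48.2 and 42.5 in SS+NAC, with a log2 fold change in SS+NAC of -0.75 ± 0.113 (SE) at an edgeR adjusted p of 0.00756. FGF5, ITGA6, PDGFC, TGFBR2 and NT5E were also among the falls. All but 1 of the 17 changes in SS+NAC that the rule took passed with the length offset, and CXCL1 did not (adjusted p = 0.0504), though its log2 fold change stayed at 1.59.

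Among the thyroid factors in SS+NAC, PAX8 had 127 and 131 TPM and HHEX 26.7 and 29.2, and 0 of the 4 tested factors were called (lowest edgeR adjusted p 0.347), beside 2.01% of all tested genes. In SS, where 40.0% of all were called, HHEX was called higher (log2 fold change 0.29, standard error 0.081, edgeR adjusted p = 0.0165) and GLIS3 lower (-0.44, standard error 0.112, edgeR adjusted p = 0.01), and 0 with the length offset. The TPM of HHEX in SS, 29.8 and 25.9, lay on both sides of the control values. MTRNR2L2 went from 8244 and 7950 TPM in control to 1556 and 1442 in SS and 1203 and 1049.8 in SS+NAC, the largest change among the 20 most abundant genes together with MTRNR2L8. Their values stay uncertain for the reason given.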

How the data were processed

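The authors filtered single-end 50-base reads of polyadenylated RNA with SOAPnuke, and mapped them with HISAT2 2.0.4 and Bowtie2 2.2.5 and quantified them with RSEM 1.2.12, versions as given in the submitters' processing notes. The deposited table gives expected counts of each library, made by the authors with RSEM, which divides reads among genes that share sequence. TPM in the deposited table were made by the authors with RSEM from counts and effective lengths. The deposited FPKM, made by the authors in that step, served as an alternative. The 9 columns of the authors' comparisons, which hold their fold changes, p-values and q-values, and 9 columns with means of groups were left unused.

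Groups were taken from the labels. Levels are the deposited TPM of the 2 control libraries, with 1 TPM in both as the limit for expression and 3 counts as the upper limit for a count of 0. Genes were described in 43 lists by role and 20 families by symbol, with older symbols matched. Members and lists were chosen with earlier results of these data known. Counts were rounded, filtered with filterByExpr, scaled by TMM and fitted for all 6 libraries with the quasi-likelihood test of edgeR 4.0.16 (R 4.3.3), called at a Benjamini-Hochberg adjusted p of at most 0.05. Simulated counts with known changes were used to test this fit. The length offset was a lowess fit (span 0.3) for each library of the deviation of log2 CPM, with a prior count of 2, on log effective length.

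The rule for named genes took the 20 most abundant genes, the 3 to 6 highest members and those with no count in each list, each thyroid, epithelial and mesenchymal factor and each selenoprotein, the 5 genes of at least 10 TPM that differed most between the control libraries, and for each comparison the 10 largest called rises and 10 largest called falls among list members with a mean of at least 1 TPM in control. It also took the promoters of the most abundant gene and of 3 thyroid or epithelial genes with the highest or no level. Families had no naming rule, so their named members, and runs and chromosomes, were chosen after their values were seen. Some genes taken by the rule are not reported here, and the counts and medians of lists include them. Alternatives were DESeq2 1.42.0 size factors and Wald test, other filters, the compared libraries alone, a replicate block, the length offset, FPKM, other limits and leaving out each library. Gene positions and promoters came from RefSeq on GRCh38.p14. The genome build used by the authors is not named in the labels, though the chromosome accessions in the deposited table are those of GRCh38. The tables and figures were made with matplotlib 3.10.9, numpy 2.4.6 and pandas 2.3.3 in Python 3.11.15.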

Additional observations from a re-analysis of the deposited data

How the results depend on the processing

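The number of genes at 1 TPM or more in both control libraries stayed between 11171 (2 TPM) and 13173 (at least 10 counts), against 11986, and that of list members between 405 and 479, against 442. The number of genes with no count rose to 2648 with a limit of 3 counts, and lay between 1471 and 1573 with each control library left out. The share of TPM in the 100 most abundant genes, 33.8%, was 26.7% without ribosomal protein genes and 20.8% in expected counts. The difference in median CpG content between promoters of genes at 10 to 100 TPM and those with no count was 0.528, and 0.536 in classes by FPKM.

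In SS, the genes called ranged from 4622 (DESeq2 Wald test) to 6594 (only the 4 libraries compared) over the alternatives other than the length offset, which left 1286, and leaving out 1 library, which gave 3118 to 6579. In SS+NAC, they ranged from 206 to 311, and from 98 to 1086 with 1 library left out. With a replicate block 4857 and 211 genes were called. Across genes, the correlation of replicate differences was 0.11 between control and SS, -0.11 between control and SS+NAC and -0.17 between SS and SS+NAC, so equal replicate numbers were not treated as pairs. A lone library left in a group was assumed to vary like the other groups. The cause of these shifts was not tested.

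Groups of 2 libraries were not tested for outliers. Genes under 1 TPM rest on few counts, with a median of 4.05 counts in that class.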

Other observations

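Further gene groups of the control cells were not covered above, and their named members were chosen after their values were seen. Claudins, the strand proteins of tight junctions, were expressed in 8 of 18 cases. CLDN11 led with 46.6 and 43.1 TPM in control replicate 1 and control replicate 2, followed by CLDN1 and by CLDN12 with 23.9 and 20.8. Over the whole keratin family, 10 of 29 genes were expressed and 7 had no count, with KRT10 at 31.3 and 31.9 TPM and KRT79 at 2.78 and 1.92 beside those of the list.

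Among adhesion receptors coupled to G proteins, ADGRE5 had 52.6 and 54.3 TPM and ADGRG1 32.7 and 30.7. Of the ion channel genes, the potassium channels KCNG1, KCNK3 and KCNN4 had 29.0 and 28.3 TPM, 25.2 and 25.5, and 18.0 and 17.7. The CYP enzymes were led by CYP51A1, a step of cholesterol synthesis, with 38.6 and 35.1 TPM, and CYP2R1, which hydroxylates vitamin D, had 12.7 and 11.6.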
